A study of Mus musculus with 15 samples.

Results

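Genes of the B cell receptor and of B cell identity were followed in the aortas of male mice given aldosterone and high salt (Aldo-salt), a treatment that induces aortic aneurysms in older male mice. The members were *Cd79a*, *Cd79b*, *Ms4a1*, *Cd22*, *Blk*, *Pax5*, *Cr2*, *Fcer2a* and *Fcrla*, which were chosen by symbol and make up 9 of the 24982 gene symbols counted by RNA-Seq. All 15 mice were wild-type C57BL/6 males aged 10 months, and each library came from the poly(A) RNA of 1 cleaned aorta. After 2 weeks of recovery from surgery, every mouse received aldosterone at 200 µg/kg per day from an osmotic minipump, with 0.9% NaCl and 0.2% KCl in the drinking water, for 7 days. Control mice had a sham operation, orchiectomized mice had lost their testes and with them gonadal androgen, and the third group was orchiectomized and implanted with a pellet of dihydrotestosterone (DHT), the androgen that cannot be converted to estrogen. There were 5 mice in each of the 3 groups. No group was free of Aldo-salt, so the comparisons concern androgen under Aldo-salt.

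B cells recognise antigen through a surface immunoglobulin that signals through the CD79A and CD79B chains, whose cytoplasmic tails are phosphorylated by Src-family kinases such as BLK. The complement receptor CR2 lowers the threshold for this signal, CD22 raises it, and the transcription factor PAX5 holds the cells in the B lineage. In the vessel wall, B cells are known mainly from the adventitia and from the lymphoid tissue of the surrounding fat.

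The 9 genes lie on 7 chromosomes of the mm10 (GRCm38) mouse genome, so their counts come from separate loci. *Cd79a* is at chr7:24897381-24902197 on the forward strand and *Cd22* at chr7:30865402-30880342 on the reverse strand. *Cd79b* is at chr11:106311341-106314762, *Ms4a1* at chr19:11249675-11266241, *Blk* at chr14:63372836-63417037, *Pax5* at chr4:44524757-44710487, *Cr2* at chr1:195136811-195176716, *Fcer2a* at chr8:3681737-3694175 and *Fcrla* at chr1:170917576-170927583, all on the reverse strand. Antisense genes overlap *Ms4a1* (4930526L06Rik), *Cd22* (Gm29439) and *Pax5* (Gm12462), *Pax5* also overlaps 2 other genes on the opposite strand and the miRNA gene *Mir5120* on its own, and the pseudogene Gm2962 lies over *Fcrla* on the same strand. Whether reads were counted by strand is not given in the sources used here, so reads of these overlapping genes cannot be told apart.

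Since the members moved together across libraries, the start regions of 3 of them are shown: the signalling chain *Cd79a*, the inhibitory receptor *Cd22* and the IgE receptor *Fcer2a*. RefSeq promoters (GRCm38.p6, 250 bases before to 50 after the transcription start) were matched for 6 of the 9 members, and those shown lie at chr7:24897247-24897546, chr7:30878979-30879278 and, for the first of 3 *Fcer2a* promoters, chr8:3694125-3694424. Each is written in the direction of its gene. Capitals mark letters of the ETS core GGAAG, the EBF1 palindrome CCCNNGGG, the octamer ATTTGCAT or the TATA box TATAAA on either strand.
Cd79a: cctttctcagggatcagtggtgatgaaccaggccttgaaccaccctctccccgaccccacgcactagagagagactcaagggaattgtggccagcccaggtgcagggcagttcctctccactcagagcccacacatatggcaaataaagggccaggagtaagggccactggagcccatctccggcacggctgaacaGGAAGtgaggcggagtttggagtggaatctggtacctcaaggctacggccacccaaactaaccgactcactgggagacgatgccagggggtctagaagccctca
Cd22: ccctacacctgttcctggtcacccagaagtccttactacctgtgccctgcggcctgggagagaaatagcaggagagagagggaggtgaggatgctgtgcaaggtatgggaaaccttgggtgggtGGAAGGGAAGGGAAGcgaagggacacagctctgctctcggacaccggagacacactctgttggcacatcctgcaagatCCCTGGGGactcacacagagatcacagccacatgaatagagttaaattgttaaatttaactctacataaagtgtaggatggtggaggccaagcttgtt
Fcer2a: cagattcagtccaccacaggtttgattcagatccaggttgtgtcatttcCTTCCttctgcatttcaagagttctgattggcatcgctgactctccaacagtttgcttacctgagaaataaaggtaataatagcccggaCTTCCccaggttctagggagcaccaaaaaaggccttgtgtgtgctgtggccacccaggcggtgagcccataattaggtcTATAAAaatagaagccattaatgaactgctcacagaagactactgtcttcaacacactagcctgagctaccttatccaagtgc
*Cd79a* held 1 ETS core, at base -54 from the start. *Cd22* held 3 ETS cores, the first at base -126, and 1 EBF1 palindrome at base -48. *Fcer2a* held a TATA box at base -33 and 2 ETS cores. Of 32851 mouse promoters of this length, 71.4% held an ETS core, 13.7% the EBF1 palindrome, 13.6% the TATA box and 1.74% the octamer, which was in 0 of the members' promoters. The E-box CANNTG, not capitalised, was in all 3 promoters shown and in 72.3% of mouse promoters. The ETS core and the E-box are too common to set the members apart.

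The libraries held 8268957 to 13816864 reads on genes, at which depth 10 counts in a library of median size equal 0.915 CPM. CPM values of single libraries below are counts scaled to the library size after TMM normalization. Smooth muscle genes were abundant in every library (6 genes, summed CPM 12290 to 26950). A pair of orchiectomized libraries stood apart for other tissues. Replicate 2 carried lung transcripts, with a summed CPM of 6857 over 11 lung genes against 32.7 to 81.8 in the other 14 libraries. Replicate 3 carried thymocyte transcripts, with a summed CPM of 94.9 over 7 genes against 0.456 to 9.14 elsewhere. Most tests and counts of called genes below are therefore given with and without both.

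B cell transcripts were scarce in the aortas of control and DHT-treated mice and reached their highest levels in orchiectomized mice, but in some of these mice only. All 9 members were above every control and every DHT-treated library in orchiectomized replicates 2, 3 and 4. Replicate 5 was above every control library for 4 of the 9 and above every DHT-treated library for 4 of the 9, and replicate 1 for 0 of 9. The 9 genes summed to 75, 2002, 492, 1231 and 187 counts in orchiectomized replicates 1 to 5, to 45 to 116 counts in the control libraries and to 42 to 97 in the DHT-treated libraries. Replicate 2 alone held 50.2% of the members' counts in its group, and replicate 4 held 30.9%. In these bulk libraries, fewer B cells and less B cell RNA per cell cannot be told apart.

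**Figure D1:**
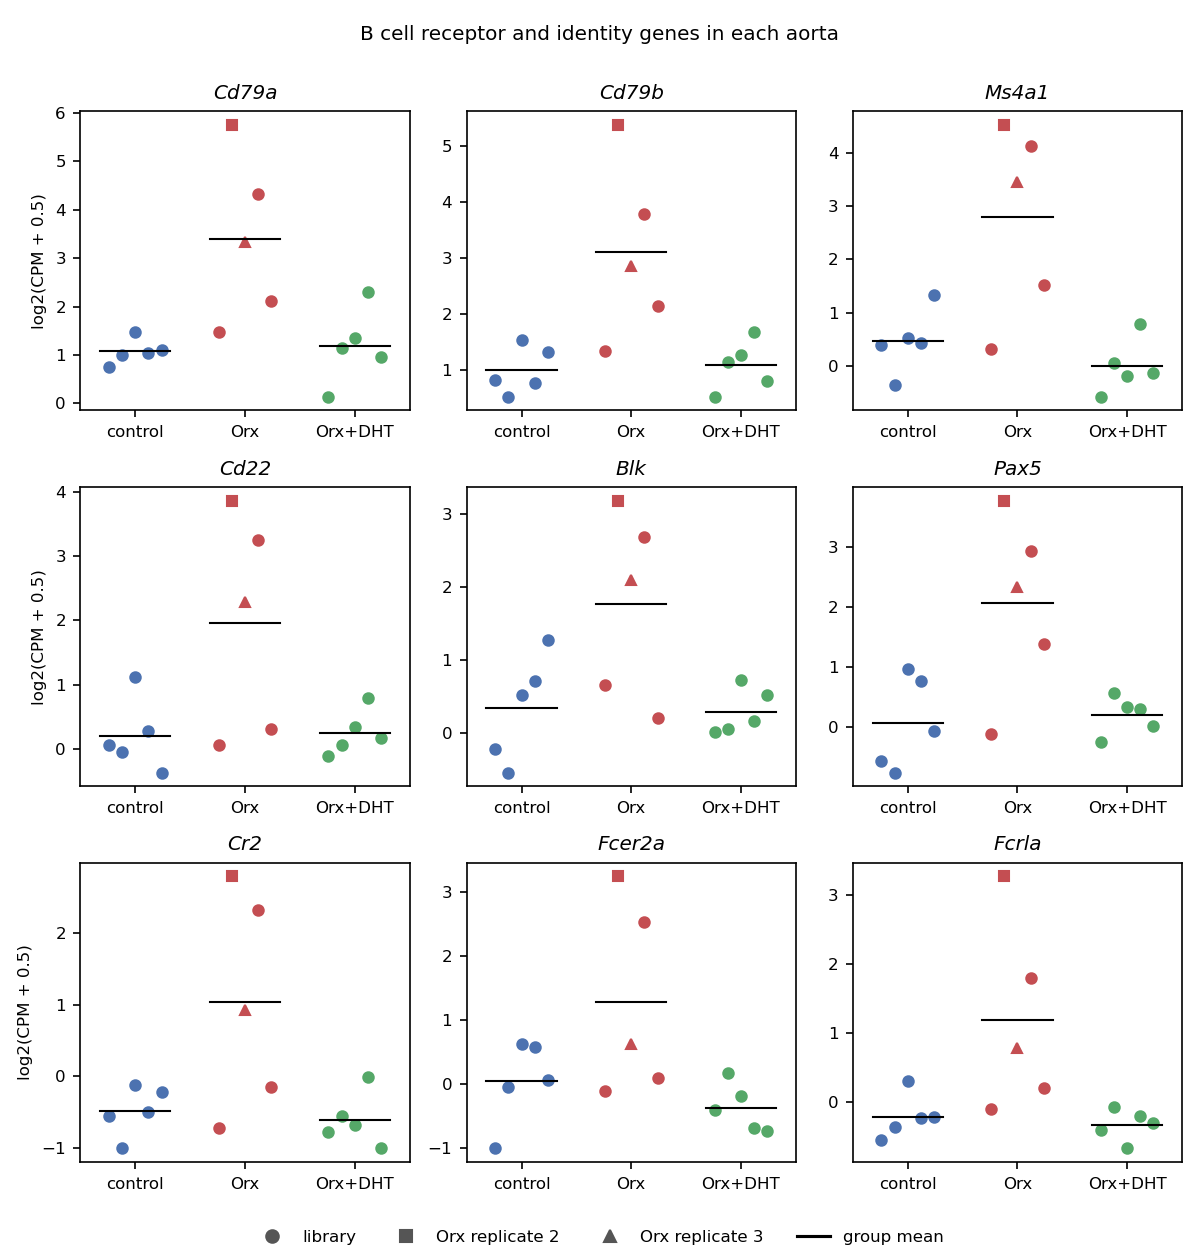
Level of each of the 9 B cell genes in each aorta, as log2(CPM + 0.5), by group (Orx, orchiectomized; Orx+DHT, orchiectomized with a DHT pellet). Each point is 1 library, the line is the mean of the 5, and the square and triangle are orchiectomized replicates 2 and 3. Replicates 2, 3 and 4 lie above all control and DHT-treated points in all 9 panels, while replicate 1 lies among them.

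*Cd79a* and *Cd79b* encode the signaling chains of the receptor. *Cd79a* was at 1.18, 1.5, 2.29, 1.56 and 1.64 CPM in control replicates 1 to 5, at 2.26, 53.5, 9.53, 19.7 and 3.83 CPM in the orchiectomized replicates and at 0.599, 1.71, 2.05, 4.44 and 1.45 CPM with DHT. Orchiectomized replicates 2 to 5 were above every control library, whereas DHT-treated replicate 4 was above orchiectomized replicates 1 and 5, so that both pairs of groups overlapped. The group means were 1.63 ± 0.409 CPM in control, 17.8 ± 21.1 CPM in orchiectomized and 2.05 ± 1.44 CPM in DHT-treated mice (SD, n = 5). *Cd79b* was at 1.27, 0.937, 2.40, 1.20 and 2.01 CPM in the control replicates, at 2.05, 41.0, 6.73, 13.3 and 3.91 CPM in the orchiectomized replicates and at 0.941, 1.71, 1.92, 2.72 and 1.24 CPM with DHT. Its orchiectomized replicates 2 to 5 were above all other libraries, and replicate 1 was among them. In orchiectomized mice, *Cd79a* was 10.9-fold higher than in control mice (log2 fold change 3.44, SE 0.74, adjusted *P* = 0.188) and *Cd79b* 8.57-fold higher (log2 fold change 3.10, SE 0.67, adjusted *P* = 0.188), in edgeR's quasi-likelihood test on all 15 libraries. A gene was called at an unadjusted *P* value under 0.01, the threshold of the study, and the adjusted *P* values are those of Benjamini and Hochberg over all 14121 genes tested. With DHT, *Cd79a* was 8.79-fold lower than in orchiectomized mice (log2 fold change -3.14, SE 0.74, edgeR adjusted *P* = 0.0281) and *Cd79b* 7.90-fold lower (log2 fold change -2.98, SE 0.67, edgeR adjusted *P* = 0.0244). The ratio of *Cd79a* to *Cd79b* counts was 1.31, 1.42 and 1.47 in the 3 highest libraries and ranged from 0.636 to 1.64 over all 15.

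*Ms4a1* encodes CD20, a membrane protein of B cells from the pre-B stage until they become plasma cells. It was at 0.815, 0.281, 0.939, 0.850 and 2.01 CPM in the control replicates, at 0.754, 22.5, 10.4, 16.8 and 2.36 CPM in the orchiectomized replicates and at 0.171, 0.54, 0.385, 1.23 and 0.414 CPM with DHT. Here too orchiectomized replicates 2 to 5 were above every other library, while replicate 1 was within the range of the controls and of the DHT group. The mean was 10.6 ± 9.29 CPM in orchiectomized mice, against 0.978 ± 0.631 CPM in control and 0.549 ± 0.406 CPM in DHT-treated mice (SD, n = 5). *Ms4a1* had the greatest fitted fall of the 9 members with DHT, 19.4-fold (log2 fold change -4.28, SE 0.82, edgeR adjusted *P* = 0.0146). Its rise after orchiectomy was 10.7-fold (log2 fold change 3.42, SE 0.76, edgeR adjusted *P* = 0.231).

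The inhibitory co-receptor *Cd22*, a sialic acid-binding lectin that recruits the phosphatase SHP-1, was at 0.543, 0.468, 1.67, 0.708 and 0.274 CPM in control mice. It was at 0.538, 14.1, 4.37, 9.07 and 0.733 CPM in orchiectomized replicates 1 to 5 and at 0.428, 0.54, 0.769, 1.23 and 0.62 CPM with DHT. Only orchiectomized replicates 2, 3 and 4 were high, and replicates 1 and 5 were below the highest control. The kinase gene *Blk* was also high in replicates 2, 3 and 4, at 1.08, 8.58, 3.76, 5.91 and 0.651 CPM in the orchiectomized replicates, against 0.187 to 1.92 CPM in control and 0.513 to 1.15 CPM in DHT-treated mice. *Cd22* was 7.87-fold higher after orchiectomy (log2 fold change 2.98, SE 0.77, edgeR adjusted *P* = 0.244) and 8.08-fold lower with DHT (log2 fold change -3.01, SE 0.78, edgeR adjusted *P* = 0.0401). *Blk* had the smallest changes of the members, 4.36-fold higher (log2 fold change 2.12, SE 0.66, edgeR adjusted *P* = 0.291) and 5.34-fold lower (log2 fold change -2.42, SE 0.68, edgeR adjusted *P* = 0.0552). The call of *Blk* after orchiectomy was lost without control replicate 1 (log2 fold change 1.92), control replicate 2 (1.87), control replicate 3 (2.10), orchiectomized replicate 2 (1.65) or orchiectomized replicate 4 (1.90), and its call with DHT was lost without orchiectomized replicate 2 (-1.94).

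*Pax5*, the transcription factor of B lineage commitment, was at 0.181, 0.0937, 1.46, 1.20 and 0.456 CPM in control mice, at 0.431, 13.1, 4.55, 7.08 and 2.12 CPM in orchiectomized mice and at 0.342, 0.991, 0.769, 0.741 and 0.517 CPM with DHT. Orchiectomized replicates 2 to 5 were above all other libraries. *Pax5* was 7.91-fold higher after orchiectomy (log2 fold change 2.98, SE 0.76, edgeR adjusted *P* = 0.244) and 8.06-fold lower with DHT (log2 fold change -3.01, SE 0.77, edgeR adjusted *P* = 0.0389).

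*Cr2*, *Fcer2a* and *Fcrla* were the rarest members. *Cr2* encodes the complement receptor CD21 and *Fcer2a* the low-affinity IgE receptor CD23, both marks of mature B cells, and *Fcrla* encodes an intracellular protein related to Fc receptors. *Cr2* had 2, 0, 4, 3 and 4 counts in control, 1, 72, 16, 65 and 5 counts in orchiectomized and 1, 2, 1, 4 and 0 counts in DHT-treated replicates 1 to 5. *Fcer2a* had 0, 5, 10, 14 and 6 counts in control, 4, 101, 12, 77 and 7 counts in orchiectomized and 3, 7, 3, 1 and 1 counts in DHT-treated mice. *Fcrla* had 2, 3, 7, 5 and 4 counts in control, 4, 103, 14, 43 and 8 counts in orchiectomized and 3, 5, 1, 3 and 3 counts in DHT-treated mice. For all 3 genes, most of the reads came from orchiectomized replicates 2 and 4, and *Fcer2a* in orchiectomized replicate 3 (1.05 CPM) was barely above control replicate 3 (1.04 CPM). *Cr2* and *Fcrla* had too few counts for the filter. *Fcer2a* passed it, and it was not called after orchiectomy (log2 fold change 2.40, SE 0.85, edgeR adjusted *P* = 0.327) but was called with DHT (log2 fold change -3.37, SE 0.93, edgeR adjusted *P* = 0.0502). It was called after orchiectomy by DESeq2 (log2 fold change 2.40, DESeq2 adjusted *P* = 0.187), and by edgeR when orchiectomized replicate 1 (log2 fold change 2.64), replicate 3 (2.59) or replicate 5 (2.66) was left out of the fit. In a fit of all 19989 genes with a count, *Cr2* was higher after orchiectomy (log2 fold change 3.34, SE 0.95, edgeR adjusted *P* = 0.222) and lower with DHT (log2 fold change -3.77, SE 1.00, edgeR adjusted *P* = 0.0549). There *Fcrla* was also higher after orchiectomy (log2 fold change 2.82, SE 0.72, edgeR adjusted *P* = 0.222) and lower with DHT (log2 fold change -3.12, SE 0.74, edgeR adjusted *P* = 0.0398).

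Counted together, 6 of the 7 members tested were higher in orchiectomized than in control mice, against 2.08% of all tested genes. None of these 6 had an adjusted *P* value under 0.05, and neither did any other gene in this edgeR comparison, where 12% of genes had an unadjusted *P* value under 0.05. With DHT, 7 of 7 were lower than in orchiectomized mice, against 7.27% of all tested genes, and 5 of these had an adjusted *P* value under 0.05, against 3.8% of all genes. Without orchiectomized replicates 2 and 3, no member stayed under 0.05 with DHT (edgeR adjusted *P* values 0.0721 to 0.269 over the 7 tested, all 7 with an unadjusted *P* value under 0.05). With all 15 libraries, in the fit of all genes with a count, 8 of 9 members were higher after orchiectomy (2.49% of all genes) and 9 of 9 lower with DHT (6.09%). Both comparisons use the same 5 orchiectomized libraries, so they are not independent of each other. In both, the groups overlapped for 9 of 9 members, whereas 0.991% of tested genes were higher in every orchiectomized than in every control library and 4.34% were lower in every DHT-treated than in every orchiectomized library.

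DHT-treated and control mice showed no called difference in any member, 0 of 7 in the filtered fit and 0 of 9 in the fit of all genes, against 1.52% of tested genes higher and 2.01% lower in the filtered fit and 1.09% and 1.43% in the fit of all genes. Over all genes of this edgeR comparison 11.8% had an unadjusted *P* value under 0.05. The fitted log2 difference, DHT minus control, was 0.30 (SE 0.75) for *Cd79a*, 0.12 (SE 0.68) for *Cd79b* and -0.04 (SE 0.81) for *Cd22*. It was -0.86 (SE 0.83) for *Ms4a1* and -0.98 (SE 0.98) for *Fcer2a*, which were the lowest. The adjusted *P* values of edgeR ran from 0.709 to 0.993 over the 7 genes. With standard errors of 0.68 to 0.98, a small difference would not have been detectable at these counts.

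Without orchiectomized replicates 2 and 3, each member kept its direction in both comparisons with orchiectomized mice, and the fitted changes were smaller. Over the 3 remaining orchiectomized mice, 3 of 7 members were called higher than in control mice, against 0.559% of tested genes. These were *Cd79a* (log2 fold change 2.40), *Cd79b* (2.05) and *Ms4a1* (2.77), and edgeR's adjusted *P* values ran from 0.802 to 0.815 over the 7. *Cd22* (2.26), *Pax5* (2.24), *Blk* (1.49) and *Fcer2a* (1.79) were not called. With DHT, 4 of 7 were called lower, against 3.56% of tested genes: *Cd79a* (log2 fold change -2.09), *Cd79b* (-1.93), *Ms4a1* (-3.62) and *Fcer2a* (-2.76). In the fit of all genes with a count, 7 of 9 members were called higher (0.61% of all genes) and 8 of 9 lower (3.05%). The adjusted *P* values of edgeR there ran from 0.723 to 0.829 and from 0.0753 to 0.307 over the 9. After orchiectomy, the calls of *Cr2*, *Cd22* and *Pax5* were near the threshold (edgeR unadjusted *P* = 0.009, 0.00953 and 0.00955). Of the 3 remaining mice, replicate 4 was far above the others, with a summed member level of 84.6 CPM against 15.2 CPM in replicate 5 and 8.07 CPM in replicate 1, the last of which was within the control range of 4.21 to 11.9 CPM.

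**Figure D2:**
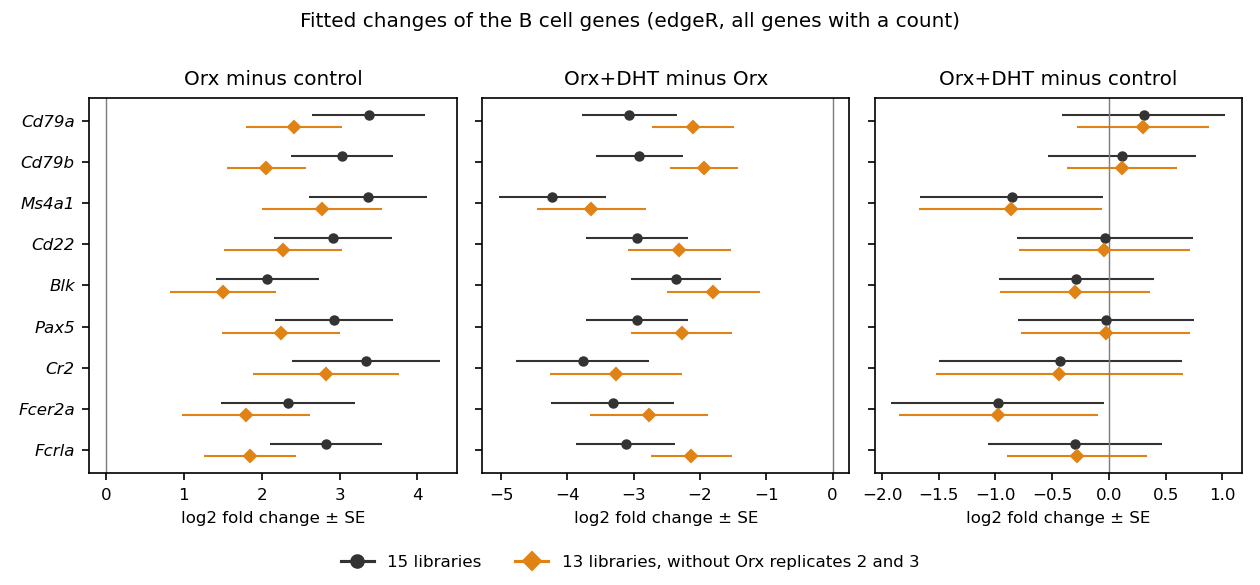
Fitted log2 fold change ± SE of each member in the 3 comparisons, from edgeR on all genes with a count, with all 15 libraries (circles) and with the 13 libraries left without orchiectomized replicates 2 and 3 (diamonds). Orx is orchiectomized and Orx+DHT orchiectomized with a DHT pellet. The values of all 9 members lie above 0 in the first panel and below 0 in the second under both sets of libraries, and between -0.98 and 0.31 with 15 libraries in the third.

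The members' proportions differed among the 3 high libraries. *Ms4a1* made up 12.7% of the members' counts in orchiectomized replicate 2 (254 of 2002, 95% Clopper-Pearson interval 11.3% to 14.2%), 24.2% in replicate 3 (119 of 492, 20.5% to 28.2%) and 19.9% in replicate 4 (245 of 1231, 17.7% to 22.2%). *Cd79a* made up 30.2% in replicate 2 (28.2% to 32.3%), 22.2% in replicate 3 (18.6% to 26.1%) and 23.2% in replicate 4 (20.9% to 25.7%). *Fcer2a* was at 5.04% in replicate 2 (4.13% to 6.1%), 2.44% in replicate 3 (1.27% to 4.22%) and 6.26% in replicate 4 (4.97% to 7.76%). Replicate 2 thus had a larger share of *Cd79a* and a smaller share of *Ms4a1* than replicates 3 and 4, and replicate 3 a smaller share of *Fcer2a* than replicate 4. These intervals cover counting error only and compare libraries, not conditions.

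Per length of transcript (RPKM, CPM divided by the exon length in kilobases), *Cd79a* and *Cd79b* had the highest mean level of the members in all 3 groups. *Cd79a* averaged 1.12 ± 0.281 RPKM in control, 12.2 ± 14.5 RPKM in orchiectomized and 1.41 ± 0.989 RPKM in DHT-treated mice (SD, n = 5), and *Cd79b* 1.09 ± 0.428, 9.36 ± 11.2 and 1.19 ± 0.478 RPKM. *Cr2* was the lowest in all groups, at 0.029 ± 0.0203, 0.314 ± 0.338 and 0.0219 ± 0.0233 RPKM, with *Pax5* next to it. Neighbours in this order overlapped in every group except *Cd79b* and *Blk* in DHT-treated mice. Across libraries the members' log2 levels correlated with each other with r from 0.839 to 0.984 over 36 pairs (median 0.926, n = 15 libraries), and from 0.728 to 0.963 over the 13 libraries without orchiectomized replicates 2 and 3. These points share library depth and the 3 groups.

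The gene whose log2 level followed the mean of the members most closely was *Cd37*, a tetraspanin of lymphocytes, with r = 0.983 over 15 libraries and 0.969 over 13. Also among the closest 10 were *Ly6d*, a surface protein of early lymphoid and B cells (0.966 and 0.92), and *Map4k1*, a kinase of blood cells (0.966 and 0.918). Others among them were *H2-Ob* and *H2-DMb2*, which act in loading peptides on MHC class II, *Nup210*, *Pou2af1* and *Ptprcap*, with r of 0.959 to 0.963.

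Beyond the receptor itself, some of the genes that carry its signal were called in both comparisons with orchiectomized mice. Of 17 signaling genes tested, 3 rose after orchiectomy, against 2.08% of all tested genes, and 10 fell with DHT, against 7.27%, with median log2 fold changes of 0.62 and -1.10, against medians of 0.04 and -0.02 over all tested genes. Among those that rose was the adaptor *Blnk* (log2 fold change 1.33, SE 0.41). Among those that fell with DHT were the exchange factor *Vav1* (log2 fold change -1.58, SE 0.38, edgeR adjusted *P* = 0.0313) and *Blnk* (-1.74, SE 0.42, edgeR adjusted *P* = 0.0329). Of 8 tested genes of receptor inhibition, 1 was higher after orchiectomy, the phosphatase *Ptpn22* (log2 fold change 1.73, SE 0.45), and 6 were lower with DHT. These were led by *Ptpn22* (-2.51, SE 0.47, edgeR adjusted *P* = 0.0133), the SHP-1 gene *Ptpn6* (-1.61, SE 0.37, edgeR adjusted *P* = 0.0266), the lipid phosphatase *Inpp5d* (-1.14, SE 0.30, edgeR adjusted *P* = 0.0433) and the lectin *Cd72* (-1.66, SE 0.46, edgeR adjusted *P* = 0.0503). Many of these genes also work in T cells or macrophages. Of 9 macrophage markers, 0 were called after orchiectomy by edgeR (1 at an unadjusted *P* value under 0.05) and 3 were lower with DHT, while without orchiectomized replicates 2 and 3 the count with DHT was 0 (2 at an unadjusted *P* value under 0.05). Their part in these calls was not tested. Without orchiectomized replicates 2 and 3, 1 signaling gene and 0 inhibition genes were called higher after orchiectomy, against 0.559% of all tested genes, and 3 of each were lower with DHT, against 3.56% (*Blnk* among the signaling genes, and *Ptpn22*, *Ptpn6* and *Cd72*). Leaving out single libraries moved the signaling calls after orchiectomy from 2 (without control replicate 1) to 6 (without orchiectomized replicate 1) and those with DHT from 6 (without orchiectomized replicate 2) to 11, and the inhibition calls from 1 to 4 (without orchiectomized replicate 1) and from 4 (without orchiectomized replicate 3) to 8.

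Among 13 tested transcription factors of B cells, 5 rose after orchiectomy, against 2.08% of all tested genes, and 5 fell with DHT, against 7.27%, each of them named here. *Spib*, an ETS factor of B cells and plasmacytoid dendritic cells, changed by 3.07 (SE 0.82) and then by -4.20 (SE 0.91, edgeR adjusted *P* = 0.0206) on the log2 scale. The octamer coactivator *Pou2af1* changed by 2.74 (SE 0.74) and -3.31 (SE 0.78, edgeR adjusted *P* = 0.0283). The Ikaros family genes *Ikzf3* and *Ikzf1*, which T cells also express, changed by 2.17 (SE 0.54) and 1.19 (SE 0.33) after orchiectomy, and by -3.51 (SE 0.60) and -1.99 (SE 0.35) with DHT. *Irf8*, shared with dendritic cells and macrophages, changed by 1.25 (SE 0.42) and -1.72 (SE 0.43). The list's medians were 0.56 and -0.77. With orchiectomized replicates 2 and 3 left out, 0 of 13 were called after orchiectomy by edgeR (5 were higher and 1 lower at an unadjusted *P* value under 0.05), while *Ikzf3*, *Ikzf1*, *Spib*, *Pou2af1* and *Irf8* were called lower with DHT, against 3.56% of all tested genes. Without orchiectomized replicate 4 alone, 3 were called after orchiectomy.

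Of 12 tested surface genes of B cells, 7 rose after orchiectomy, against 2.08% of all tested genes, and 11 fell with DHT, against 7.27%, with median log2 fold changes of 1.67 and -1.98. Those that rose included the lymphotoxin gene *Ltb* (log2 fold change 2.71, SE 0.66) and *Cd37* (1.53, SE 0.40). Those that fell with DHT included *Cd37* (-1.69, SE 0.41, edgeR adjusted *P* = 0.0315) and the costimulatory receptor *Cd40* (-1.33, SE 0.33, edgeR adjusted *P* = 0.036). With orchiectomized replicates 2 and 3 left out, 2 genes, *Ltb* among them, rose after orchiectomy (0.559% of all tested genes), and 3, *Cd37* and *Cd40* among them, fell with DHT (3.56%). Without orchiectomized replicate 2 alone, 4 rose after orchiectomy. Between DHT-treated and control mice, 0 genes of the signaling, inhibition, transcription factor and surface lists were called with all libraries. *Cd40* was called lower with DHT in the fit without orchiectomized replicates 2 and 3 (log2 fold change -0.75), and 1 signaling gene was called in the fit without control replicate 1.

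Later and earlier stages of the lineage could be followed less well. Immunoglobulin constant region genes were not analysed here. *Jchain*, which joins secreted IgM and IgA, had 162, 166, 443, 291 and 156 counts in control, 55, 3262, 417, 1568 and 814 counts in orchiectomized and 17, 421, 22, 121 and 267 counts in DHT-treated mice. Its groups overlapped widely, and it was called in neither comparison (log2 fold change 2.19, SE 0.87, edgeR adjusted *P* = 0.364 after orchiectomy, and -2.57, SE 0.88, edgeR adjusted *P* = 0.106 with DHT). Of 7 tested plasma cell and germinal center genes, 2 were called higher after orchiectomy, against 2.08% of all tested genes, and 3 lower with DHT, against 7.27%. *Mzb1*, a chaperone of antibody secretion, was higher after orchiectomy (log2 fold change 3.23, SE 0.82) and lower with DHT (-3.33, SE 0.83, edgeR adjusted *P* = 0.0353), and *Derl3* was higher after orchiectomy (1.64, SE 0.53). *S1pr2*, a receptor that confines germinal center B cells and is also made in vessels, and *Sdc1*, a plasma cell and epithelial proteoglycan, were lower with DHT (-0.86, SE 0.18 and -0.92, SE 0.29). *S1pr2* was also lower in DHT-treated than in control mice (-0.72, SE 0.18, edgeR adjusted *P* = 0.139). With orchiectomized replicates 2 and 3 left out, *Mzb1* was higher after orchiectomy (0.559% of all tested genes) and *Mzb1* and *S1pr2* were lower with DHT (3.56%). *S1pr2* stayed lower than in control mice (-0.72).

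Of 8 precursor genes, *Rag1* and *Il7r* passed the filter. Both were called up after orchiectomy (log2 fold change 4.88, SE 1.35 and 1.64, SE 0.47), against 2.08% of all tested genes, and down with DHT (-6.31, SE 1.55 and -2.57, SE 0.50), against 7.27%. At least 10 counts of *Rag1* were found only in orchiectomized replicates 2 to 5 (11, 612, 49 and 24) and control replicate 4 (23). It thus passed the filter through the group where it was high, and its calls cannot be read against these shares. *Rag1*, which cuts antigen receptor genes in B and T cell precursors alike, had 612 counts in orchiectomized replicate 3, the library with thymocyte transcripts, and 0 to 49 elsewhere. *Il7r*, which mature T cells also express, had 9, 82, 26, 108 and 22 counts in orchiectomized replicates 1 to 5, against 10 to 17 in control and 4 to 10 in DHT-treated mice. *Vpreb3*, a partner of the receptor in immature B cells that was singled out after its values were seen, had 331 counts in orchiectomized replicate 2 and 0 to 5 in the other 14 libraries. With orchiectomized replicates 2 and 3 left out, neither *Rag1* nor *Il7r* was called after orchiectomy and both were called with DHT, against 0.559% and 3.56% of all tested genes. Without orchiectomized replicate 2 alone, 1 precursor gene was called after orchiectomy.

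Among genes of the ligands and attractants of B cells, the survival factor BAFF was lower with DHT. Of 7 tested, 0 were called after orchiectomy by edgeR (2 were at an unadjusted *P* value under 0.05) and 2 were lower with DHT, against 7.27% of all tested genes. *Tnfsf13b*, which encodes BAFF, had 73 to 152 counts in control, 102 to 227 in orchiectomized and 34 to 63 in DHT-treated mice. It was 2.29-fold lower with DHT than in orchiectomized mice (log2 fold change -1.19, SE 0.22, edgeR adjusted *P* = 0.0125), and it was also lower than in control mice (-0.72, SE 0.22, edgeR adjusted *P* = 0.241), where no member was called. The complement gene *C3* was lower with DHT (-0.69, SE 0.20, edgeR adjusted *P* = 0.0575). With orchiectomized replicates 2 and 3 left out, 0 ligand genes were called after orchiectomy, and *Tnfsf13b* (-0.89) and the chemokine gene *Cxcl12* (-0.55) were lower with DHT, against 3.56% of all tested genes. Leaving out orchiectomized replicate 3 alone left 1 ligand gene called with DHT. *Cxcl13*, the attractant of B cells into follicles, was highest in control replicate 4, with 619 counts against 17 to 197 in the other 14 libraries, and it was named after its values were seen.

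The libraries with the most B cell transcripts also held more of other lymphoid transcripts. T cell genes (12 genes) summed to 13.2, 69.5, 86.7, 51.9 and 21.2 CPM in orchiectomized replicates 1 to 5, to 7.59 to 21.3 CPM in control and to 6.67 to 10.9 CPM in DHT-treated mice. Of 10 tested T cell genes, 8 rose after orchiectomy, against 2.08% of all tested genes, and 10 fell with DHT, against 7.27%. Without orchiectomized replicates 2 and 3, 2 rose (0.559% of all genes) and 5 fell (3.56%). Thymocyte genes were at 9.14 CPM in orchiectomized replicate 4, 6.55 CPM in replicate 2, 5.45 CPM in replicate 5 and 2.69 CPM in replicate 1, against 0.456 to 3.75 CPM in control mice. Of 6 thymic epithelial genes, 4 were highest in orchiectomized replicate 3 and 2 in orchiectomized replicate 2, which had 2 of them at 0. All 6 had counts in orchiectomized replicate 3 and also in control replicate 4. They summed to 15.6 CPM in orchiectomized replicate 3, to 44.6 CPM in orchiectomized replicate 2 and to 1.14 to 2.83 CPM elsewhere. Lymph node stroma genes (6 genes) summed to 47.8 CPM in control replicate 4, where the members summed to 8.21 CPM, and to 25.3 CPM or less elsewhere. The sum was mostly 1 chemokine gene, *Cxcl13*, at 43.8 CPM in that control library, where 3 of the 6 genes were at 0. Of the 3 tested, *Chst4*, a sulfotransferase of lymph node venules that was named after its values were seen, was lower with DHT than in orchiectomized mice (log2 fold change -2.66, SE 0.52) and than in control mice (-2.58, SE 0.52), and without orchiectomized replicates 2 and 3 these log2 fold changes were -2.46 and -2.57. Conventional dendritic cell genes (6 genes) summed to 53.1, 25.4 and 27.1 CPM in orchiectomized replicates 2, 3 and 4 and to 22.9 CPM or less elsewhere. Of the 4 tested, 1 was higher after orchiectomy, against 2.08% of all tested genes, and 3 were lower with DHT, against 7.27%. Without orchiectomized replicates 2 and 3, 5 were tested, of which 1 was higher (0.559% of all tested genes) and 2 were lower (3.56%). *Itgax*, an integrin of myeloid cells, was also named after its values were seen. It was called in both comparisons with all 15 libraries (log2 fold change 2.01, SE 0.47 and -2.99, SE 0.51) and again without orchiectomized replicates 2 and 3 (1.24 and -2.22). The part of lung, thymus or lymph node tissue or of dendritic cells in the B cell result was not tested. Replicate 4, which had the second highest member level, was at 81.8 CPM for the lung genes, far under replicate 2 but above the 32.7 to 51.8 CPM of the 12 libraries other than orchiectomized replicates 2, 3 and 4. With replicates 2 and 3 left out, 2 lung genes, *Napsa* (log2 fold change 1.34) and *Scgb1a1* (2.29), were still called higher after orchiectomy, as were 2 T cell genes, *Cd3g* (1.82) and *Cd8a* (1.88). These 4 were named after their values were seen.

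**Figure D3:**
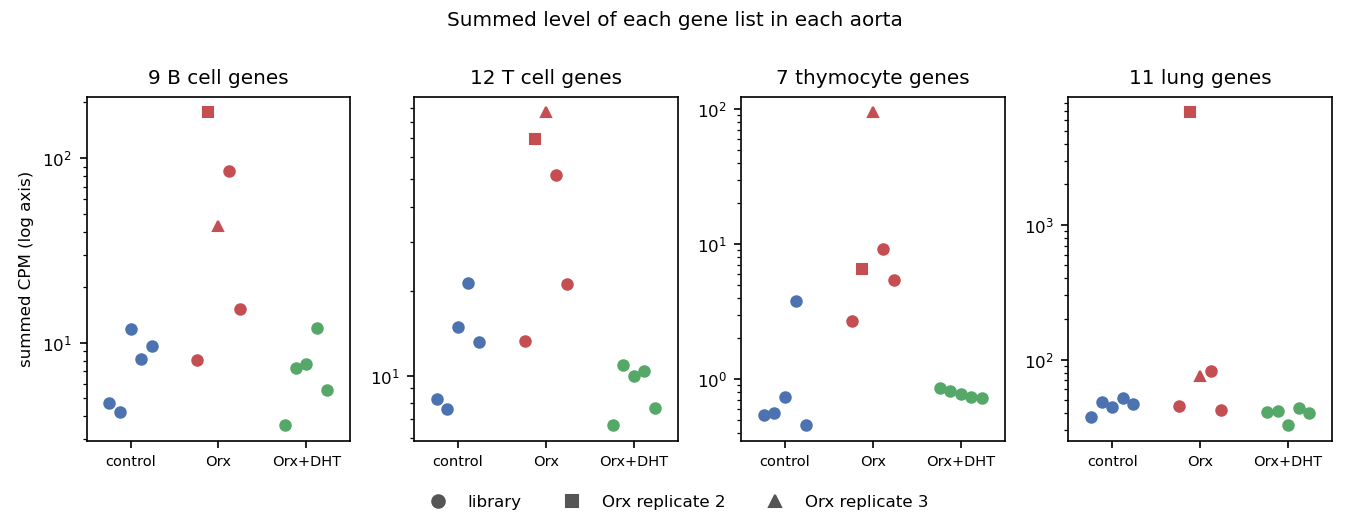
Summed CPM, on a log axis, of the 9 B cell genes, 12 T cell genes, 7 thymocyte genes and 11 lung genes in each aorta, by group (Orx, orchiectomized; Orx+DHT, orchiectomized with a DHT pellet). Each point is 1 library, and the square and triangle are orchiectomized replicates 2 and 3. The lung genes are far highest in replicate 2 (6857 CPM) and the thymocyte genes in replicate 3 (94.9 CPM), while the B and T cell genes are high in replicates 2, 3 and 4.

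Whether *Cd79a* changed beyond *Cd3e*, a chain of the T cell receptor complex, was asked with the log2 ratio of their CPM plus 0.5. Among the 7 members tested, *Cd79a* had the largest fitted rise after orchiectomy (log2 fold change 3.44, against 2.12 for *Blk*). It also had the highest DHT minus control difference (0.30, against -0.86 for *Ms4a1* and -0.98 for *Fcer2a*). The ratio therefore does not stand for the B cell genes as a set. The log2 ratio was 0.454, 0.476, 0.857, 0.608 and 0.197 in control replicates 1 to 5, 1.14, 3.07, 0.543, 2.36 and 1.08 in the orchiectomized replicates and 0.908, 0.968, 1.53, 1.32 and 0.67 with DHT. Orchiectomized replicate 3 was within the control range, and replicates 2 and 4 were above all other libraries. The mean was higher in orchiectomized than in control mice (1.64 ± 1.04 against 0.519 ± 0.241, SD, n = 5; exact two-sided permutation test, *P* = 0.0238, adjusted over the 3 comparisons 0.0357). It was also higher in DHT-treated than in control mice (1.08 ± 0.342, n = 5; exact permutation *P* = 0.0159, adjusted 0.0357). DHT-treated and orchiectomized mice differed by -0.56 (n = 5; exact permutation *P* = 0.325), less than the spread between the orchiectomized mice. Without orchiectomized replicates 2 and 3, the orchiectomized minus control difference was 1.01 (n = 3 against 5; exact permutation *P* = 0.0179, the smallest that these numbers of mice allow) and the DHT-treated minus orchiectomized difference -0.45 (exact permutation *P* = 0.304). The smallest *P* value that 5 against 5 mice allow is 0.0079. The first difference missed 0.05 when control replicate 1 (exact permutation *P* = 0.0873), replicate 2 (*P* = 0.0794) or replicate 5 (*P* = 0.0952) was left out, and the DHT-treated against control difference was 0.26 with *Cd3d*, *Cd3e* and *Cd3g* together as the reference (exact permutation *P* = 0.254). *Cd3e* itself had 1 to 15 counts in control and DHT-treated libraries, so the ratio is imprecise there. With a pseudocount of 0.1 in place of 0.5, DHT-treated minus orchiectomized was -0.22 (exact permutation *P* = 0.69), DHT-treated minus control 0.89 (exact permutation *P* = 0.0159) and orchiectomized minus control 1.11 (exact permutation *P* = 0.0476).

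**Figure D4:**
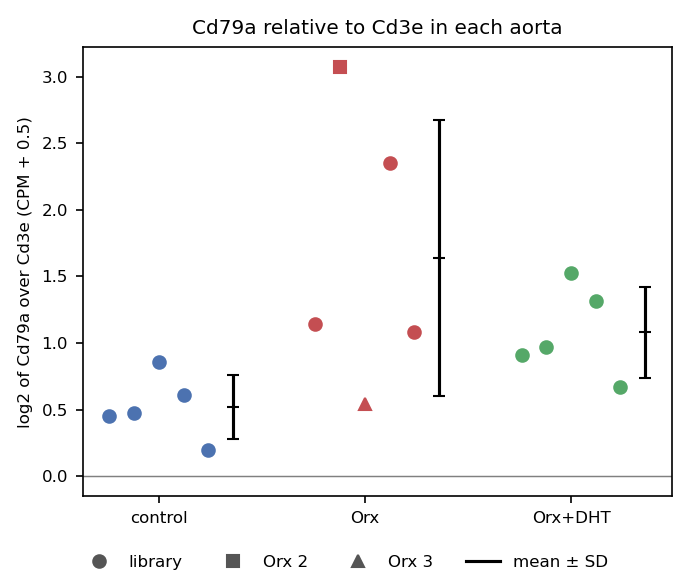
Log2 ratio of *Cd79a* to *Cd3e* (CPM + 0.5) in each aorta, by group (Orx, orchiectomized; Orx+DHT, orchiectomized with a DHT pellet), with the mean ± SD of the 5 libraries beside the points. The square and triangle are orchiectomized replicates 2 and 3. The orchiectomized mice spread from 0.543 to 3.07, while the control mice lie between 0.197 and 0.857.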

How the data were processed

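RNA-Seq was done on whole aortas of 15 mice, 1 per library, grouped by the labels. The authors deposited raw counts of reads per gene symbol, with no normalization. The submitters' processing notes name STAR, Cufflinks, DESeq2 and mm10, while the counting program, strand setting and annotation are not given in the sources used here. Reads on no gene (6.26% to 14.4% of counted reads) and on several genes (1.34% to 1.97%) were left out.

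The tests were run in edgeR 4.0.16 under R 4.3.3, with filterByExpr (minimum count 10, minimum total 15), TMM normalization, and a quasi-likelihood fit of the 3 groups to all 15 libraries, checked on simulated data. A call is an unadjusted *P* value under 0.01, with Benjamini-Hochberg values over all genes beside it. The *P* values measure the spread between mice, and leave-one-library-out and other fits (DESeq2 1.42.0, limma 3.58.1) are given as alternatives. RPKM used GENCODE M21 exon lengths, and likeness is Pearson's r of log2 CPM (prior count 3) with the mean over the members. Within each B cell list and comparison, the genes named are all called genes where 5 or fewer were called, otherwise the 4 with the smallest *P* value, except for a few genes that are not reported here by name and stay in the counts. Lists of other cell types are given by summed level and counts, and genes named from them, other than *Cd3e*, were chosen after their values were seen. The members and lists were chosen with earlier results of these data known. Figures were drawn with matplotlib 3.10.9.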

Additional observations from a re-analysis of the deposited data

How the results depend on the processing

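In the comparisons of orchiectomized with control and of DHT-treated with orchiectomized mice, no member changed direction under any alternative run. The members called were 6 and 7 of 7, and 7 and 7 by DESeq2, which also called *Fcer2a* after orchiectomy. They were 1 and 1 (of 1 tested) with at least 10 counts in every library, 2 and 2 by limma's voom with quality weights, 3 and 4 without orchiectomized replicates 2 and 3, and 5 to 7 and 6 to 7 when 1 library at a time was left out. The members that lost their calls by voom had smaller log2 changes there than in the main fit. After orchiectomy these were 1.98 (*Cd79a*), 2.19 (*Ms4a1*), 1.52 (*Cd22*) and 1.08 (*Blk*). With DHT they were -1.92 (*Cd79a*), -1.31 (*Cd22*), -1.02 (*Blk*), -1.87 (*Pax5*) and -1.59 (*Fcer2a*). At an adjusted *P* value under 0.05 in the main fit, 0 members were called after orchiectomy. The deviations of same-numbered mice correlated with mixed sign (from -0.466 to 0.463, 5 of 15 pairs over 0.1). These values do not decide whether the numbers pair the mice. With the replicate number as a block, 5 and 6 were called, *Blk* being lost, and the block without orchiectomized replicates 2 and 3, added after seeing the data like the fit of all genes without them, gave 3 and 3. With the block, the log2 ratio of *Cd79a* to *Cd3e* differed by 1.12 (orchiectomized minus control, exact permutation *P* = 0.125) and 0.56 (DHT minus control, exact permutation *P* = 0.0625, the smallest that 5 pairs allow). Leaving out 1 library gave 0.76 to 1.39, 0.45 to 0.66 for DHT minus control and -0.83 to -0.20 for DHT minus orchiectomized, and DHT minus control was 0.26 with 3 CD3 genes as reference.

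DHT-treated and control mice differed in no call (0 of 7 in every leave-one-out fit), but the small log2 differences changed sign 21 times, counting each member under each alternative. With the block they became -0.041 (*Cd79b*), 0.052 (*Cd22*) and 0.079 (*Pax5*). By voom they were 0.21 (*Cd22*), 0.062 (*Blk*), 0.88 (*Pax5*) and 0.036 (*Fcer2a*), and with the block without orchiectomized replicates 2 and 3 they were 0.081 (*Cd22*) and 0.31 (*Pax5*). Leaving out 1 library at a time gave -0.19 to 0.55 for *Cd79a*, -0.11 to 0.31 for *Cd79b*, -0.31 to 0.47 for *Cd22*, -0.55 to 0.16 for *Blk* and -0.30 to 0.40 for *Pax5*. The cause was not tested.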

Other observations

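Neutrophil genes were also low in control and higher in orchiectomized aortas. The 7 genes summed to 0.562 to 2.35 CPM in control, 5.91 to 32.7 CPM in orchiectomized and 2.43 to 11.4 CPM in DHT-treated mice, so the orchiectomized and control libraries did not overlap. All 3 tested, the calprotectin genes *S100a8* (log2 fold change 3.74, SE 0.65) and *S100a9* (3.60, SE 0.62) and the granule gene *Ngp* (4.29, SE 0.79), were called up after orchiectomy and down with DHT (-1.79, SE 0.58, -1.71, SE 0.56, and -2.61, SE 0.69), against 2.08% and 7.27% of all tested genes. *S100a8* and *S100a9* stayed higher in DHT-treated than in control mice (1.94, SE 0.65 and 1.90, SE 0.61), against 1.52% of all tested genes, where no B cell member was called. Without orchiectomized replicates 2 and 3, all 3 were still higher after orchiectomy (3.24, 3.20 and 3.94), against 0.559% of all tested genes, *Ngp* was lower with DHT (-2.25), against 3.56%, and *S100a9* was higher in DHT-treated than in control mice (1.89).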
